A study of Mus musculus with 15 samples.

Results

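The mostly unmethylated CpGs at ordinary depth are 1485 of the 204492 CpG positions measured in mouse sperm DNA, or 0.726%. They were chosen by 2 values: a mean methylation under 50% over 15 libraries, and a mean coverage under 160 reads, which is 5 times the median of 32 reads over all positions. Positions in a block of ribosomal DNA on chromosome 17 (chr17:39843014-39848698, mm10) were left out. Of the 2008 positions under 50%, 346 lay in that block and 177 were over the coverage limit, which leaves the 1485 members. Methylation level is the share of reads at a position in which the cytosine stayed unconverted by bisulfite, in percent, and coverage is the number of reads there.

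The DNA came from sperm of male C57BL/6 mice, an inbred strain, all of generation G1. 7 libraries carried the diet label Control and 8 the label PR, for which the series' design text speaks of protein restriction. Whether the males themselves or their parents ate the diet is not stated in the labels, and neither are shared animals, litters or batches, so p-values measure only the spread between these libraries. In reduced representation bisulfite sequencing the enzyme MspI cuts at CCGG and short fragments are sequenced after bisulfite treatment.

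Mature sperm carries methylation on most CpGs of the genome. Promoters rich in CpGs are the main exception, along with the control regions of maternally methylated imprinted genes, which gain their mark only in the egg. Sites between these states can be variable between animals, such as some copies of young retrotransposons, and sites methylated in only a part of the sperm read as intermediate.

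Most sperm promoters without methylation cannot appear among the 1485, because no position in the files has fewer than 11 methylated reads in any library. Of 32 annotated starts of 22 maternally methylated imprinted genes, 0 had a listed position within 1 kb, so the expected absence of methylation there could not be checked on the list. Although called mostly unmethylated, most members lie close under the 50% limit.

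Promoter windows held 10 members, and 3 of these windows are shown as examples. RefSeq (build GRCm38.p6) gives 32851 windows from 250 bases before to 50 bases after a gene's start. 322 of them (0.980%) held a listed CpG, so few could hold a member, and 8 held the 10 members. Of the 685 listed promoter CpGs 10 were members, against 1485 of all 204492 listed positions. The windows of Pfdn2, which encodes a subunit of the prefoldin chaperone, and of the noncoding RNA gene Gm39090 are shown because they held the least methylated members. That of the noncoding RNA gene 4930478L05Rik is shown because it held 3. All 3 genes lie on the plus strand, the sequences run 5′ to 3′, and the CG of each member is in capitals.
Pfdn2, chr1:171344704-171344953, the 250 bases before the start: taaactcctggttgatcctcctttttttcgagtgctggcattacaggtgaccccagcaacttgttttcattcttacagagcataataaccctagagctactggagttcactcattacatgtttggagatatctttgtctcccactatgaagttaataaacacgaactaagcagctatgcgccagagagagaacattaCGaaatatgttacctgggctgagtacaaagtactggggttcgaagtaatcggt
Gm39090, chr7:127691336-127691635, the whole window: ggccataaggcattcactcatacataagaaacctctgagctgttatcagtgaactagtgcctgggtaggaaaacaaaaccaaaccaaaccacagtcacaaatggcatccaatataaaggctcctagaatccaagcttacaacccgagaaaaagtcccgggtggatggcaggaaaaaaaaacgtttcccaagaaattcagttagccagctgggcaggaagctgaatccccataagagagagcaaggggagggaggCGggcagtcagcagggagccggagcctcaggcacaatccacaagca
4930478L05Rik, chr16:78560066-78560365, the whole window: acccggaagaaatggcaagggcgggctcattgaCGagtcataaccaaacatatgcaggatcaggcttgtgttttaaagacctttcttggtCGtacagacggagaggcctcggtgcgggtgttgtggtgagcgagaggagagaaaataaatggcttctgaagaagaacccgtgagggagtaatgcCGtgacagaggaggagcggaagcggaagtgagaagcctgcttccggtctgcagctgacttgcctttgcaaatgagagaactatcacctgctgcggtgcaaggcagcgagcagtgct

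The member upstream of Pfdn2, 53 bases before the start, had methylation levels of 17.6% to 30.2% in the Control libraries (median 26.7%) and 23.1% to 31.2% in the PR libraries (median 27.1%). The diets overlapped widely. At Gm39090, where the member lies 4 bases after the start, Control libraries ran from 20.3% to 30% (median 24.5%) and PR libraries from 22.4% to 33.9% (median 28.5%), again overlapping. Neither window had a second listed CpG, although they held 7 and 5 CpGs in all.

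The 3 members in the window of 4930478L05Rik, at 217, 160 and 66 bases before the start, averaged 47.5%, 40% and 45.7%. The 4 other listed CpGs of that window stood between 54.4% and 63.0%, so its 7 listed CpGs were of intermediate level. The window held 15 CpGs in all, and any free of methylation could not be listed. Averaged over the 3 members, Control libraries ran from 38.1% to 53.8% and PR libraries from 33.7% to 55.0%. The other promoter members were single sites at Gja5, which encodes a gap junction protein of the heart and arteries (49.2%), and at the noncoding RNA genes Gm30448, Gm51769, Gm12130 and Gm39468 (37.6% to 48.9%). The MspI site CCGG was found in 7 of the 8 windows with a member, in 78.6% of windows with a listed CpG and in 52.8% of all promoter windows. None of the 10 members lay in a CCGG site, against 12 of the 685 listed promoter CpGs (1.75%), counted on both strands since CCGG reads the same on each. The 12 listed CpGs within CCGG had a median methylation level of 96.1% (82.4% to 98.7%).

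Promoter windows with a member held a median of 7 CpGs, the same as the median of 7 over all windows and close to the 6 in windows with any listed CpG. The ratio of observed to expected CpGs had a median of 0.472 with a member, 0.357 with a listed CpG and 0.384 over all windows. The window of 4930478L05Rik stood above these medians, with 15 CpGs and a ratio of 0.755. The median GC content was 50.2%, 49.2% and 52.7% in the same order.

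Levels among the members crowded toward the limit that chose them. The median was 43.3%, with quartiles of 37.8% and 47.1% and a lowest value of 16.2%. 982 members (66.1%) lay between 40% and 50%, 409 between 30% and 40%, 87 between 20% and 30%, and 7 under 20%. 376 members were under 50% in each of the 15 libraries. The member just inside the level limit, at chr11:103922822, had a mean of 49.99%, and the CpG just outside, at chr14:94306036, had 50.01%. On the coverage side the last member, at chr4:15916609, had 155 reads and the first position left out, at chr9:3000341, had 164.

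Lower members had more coverage, a direction given by the list's construction. At least 11 methylated reads in every library take more reads in all at a lower level. Median coverage was 54.8 reads for those between 40% and 50%, 67.5 between 30% and 40%, 84.9 between 20% and 30%, and 120 under 20%. Over all members it was 60.6 reads (29.8 to 155), against 40.5 reads in the 9313 CpGs at 50% to 80% chosen with the same coverage limit, called intermediate CpGs here. In 616 members (41.5%) at least 1 library had only 11 or 12 methylated reads, the least the list holds. The same was true of 25.6% of the intermediate CpGs and of 17.8% of all listed positions. How much of the lower end of the levels the list leaves out was not tested.

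**Figure D1:**
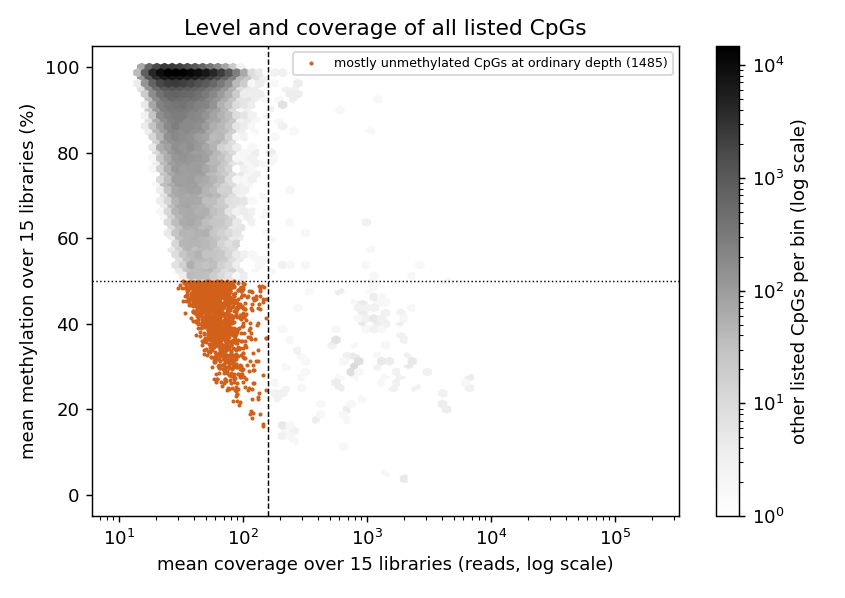
Mean methylation (vertical axis, percent) against mean coverage (horizontal axis, reads, log scale) over 15 libraries for all listed CpGs, in gray bins shaded by number, with the 1485 members as orange points and the limits of 50% and 160 reads as lines. The members' lower edge falls as coverage rises, from near 50% at 29.8 reads to 16.2% at 146 reads. The minimum of 11 methylated reads in every library gives an edge in this direction by construction. Most other positions lie above 90%.

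The 5 members with the lowest levels, 1 per run of neighbouring members, had 115 to 146 reads. The lowest, chr4:147187938, lies in the zinc finger gene Zfp978 and the pseudogene Gm13146, and its levels were 13.6% to 27.5% (median 17.5%) in Control and 11.3% to 20.8% (median 13.7%) in PR libraries. The Control libraries sat somewhat higher, but the diets overlapped (unadjusted p = 0.0186, adjusted p = 1, quasi-binomial F test). Zfp978 belongs to a large clustered gene family with near copies, so reads may not be unique to it. In Foxp2, a forkhead transcription factor of brain and lung development, the member at chr6:14948487 had 13.7% to 20.7% in Control and 13.01% to 27.8% in PR libraries. Dpp10, a potassium channel partner protein, held one at chr1:124447261, with 11.4% to 22.1% in Control and 12.8% to 24.9% in PR libraries. The others lay at chr13:12829511, 29418 bp from the prolactin family gene Prl2c3, and at chr11:119525026 in the noncoding RNA gene Gm39484, with means of 18.9% each. In all 5 the library values of the diets overlapped.

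Gene ends and the neighbourhood of starts held more of the members than of other listed CpGs, and the inside of genes fewer. Of the 1463 members on chromosomes of the gene table, 241 (16.5%) were no more than 1 kb from the end or beginning of a gene, against 12.1% of the intermediate CpGs and 7.93% of all listed positions. 504 (34.4%) lay further inside a gene, against 37.1% and 56.2%. 718 (49.1%) lay outside genes, against 50.8% and 35.9%. Within 1 kb of an annotated start stood 97 members (6.63%), against 4.45% and 2.003%, and protein-coding gene spans held 33.2%, against 33.9% and 53.5%. By place the members thus resembled the intermediate CpGs more than the whole list. These shares are descriptions, since CpGs on 1 fragment are not independent, and exons, introns and untranslated regions were not analysed here.

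Across the autosomes the members made up between 0.474% (chromosome 11) and 0.852% (chromosome 10) of the listed CpGs, with a median of 0.738%. Chromosome X held 9 of 1563 (0.576%) and chromosome Y 5 of 155 (3.23%). Unplaced and unlocalized scaffolds, pieces of the assembly with no set position and often repeated, held 22 members (1.48% of members), against 0.365% of the intermediate and 0.0719% of all listed CpGs. On 1 scaffold, JH584304, 11 of 53 listed CpGs (20.8%) were members. The first 3.5 Mb of the autosomes, next to the centromere in the mouse, held 25 members (1.68%), against 0.870% and 0.385%. Repeated sequence can gather reads of several copies under 1 position; repeats were not annotated here.

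Of 14 lists of genes, none held a member that passed the diet test, and 4 held no member at all. As a base, 802 of the 135805 listed CpGs in or within 2 kb of any gene (0.591%) were members, with a median difference, PR minus Control, of -0.222 percentage points. The protamine and haploid sperm genes, which pack and build the sperm, had 0 of 101, the paternally methylated imprints 0 of 63, the clustered protocadherins 0 of 35 and the histone genes 0 of 5.

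Developmental regulators (homeobox, forkhead, Sox and signalling genes) had 7 of 1342 (0.522%), close to the base. Near Foxd1, a forkhead factor of the kidney stroma, the 2 members, the closer 1143 bases from the start, ran from 35.1% to 53.3% in Control and 39.4% to 51.3% in PR libraries. The member in Fgf8, a growth factor of limb and brain patterning, spread more widely, at 32.4% to 55.3% and 27.7% to 64.4%. Foxn3 had 1 member of 151 listed CpGs, with Control libraries at 30.4% to 53.8% and PR libraries at 31.2% to 59.6%. Library values of both diets overlapped at each of these genes.

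Zinc finger genes, many of which encode repressors that bind DNA, held 25 of 1992 (1.26%) in 15 genes, with 9 higher and 16 lower in PR, a median difference of -0.822 points, and 2 at an unadjusted p under 0.05 (3.79% of all listed positions were). Zfp978 had 3 members, at 17.6% to 25.1% in Control and 16.8% to 23.7% in PR libraries. Zbtb44 had 2, with means of 48.98% and 49% and a wider range in PR (34.2% to 66.5%) than in Control (40.4% to 56.1%). For the 2 members of Zfp106 the Control mean was 49.1% ± 6.13 (SD, n = 7) and the PR mean 45.5% ± 6.34 (SD, n = 8).

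Genes of DNA methylation and chromatin held 6 members of 266 (2.26%). 2 of them, near the histone H3K9 methyltransferase gene Ehmt1, ran from 24.8% to 43.5% in Control and 28.3% to 39.6% in PR libraries. A pair between Kmt2b, a histone H3K4 methyltransferase, and its neighbour Zbtb32 averaged 39.7% ± 6.17 (SD, n = 7) and 41.3% ± 3.89 (SD, n = 8), and this pair counts in both lists. Kmt2a, of the same enzyme family, had 1 member of 42 at 31.7% ± 5.304 and 32.0% ± 3.90 (SD, n = 7 and 8). Tet1, which oxidizes methylated cytosine, had 1 of 15, at 44.8% ± 3.98 and 42.4% ± 5.34. None of these differed between diets by more than the spread of the libraries.

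In Peg3, an imprinted zinc finger gene, 2 of 9 listed CpGs were members, at chr7:6707734 and chr7:6707829, 11302 bases or more from an annotated start. Control libraries ran from 28.0% to 39.1% and PR libraries from 23.2% to 40.2%, with means of 34.1% ± 4.35 (SD, n = 7) and 33.9% ± 5.60 (SD, n = 8). Germline genes had 2 of 114: 687 bases from the start of Sycp1, a protein of the meiotic synaptonemal complex, the means were 33.4% ± 3.95 (SD, n = 7) and 32.5% ± 6.82 (SD, n = 8). In Tex14, needed for the bridges between germ cells, they were 38.2% ± 5.04 and 44.4% ± 4.49, with ranges of 30% to 43.9% and 38.9% to 53.7% that overlapped.

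Among metabolic and growth genes 1 of 404 listed CpGs was a member, in Atf4, a transcription factor of the response to amino acid shortage. Its levels ran from 24.1% to 51.9% (median 41.9%) in Control and from 20.0% to 57.1% (median 30.8%) in PR libraries. The PR median was lower but the PR libraries enclosed the whole Control range (unadjusted p = 0.295, adjusted p = 1, quasi-binomial F test). Ribosomal RNA synthesis had 1 of 146, near Polr1c, which encodes a shared RNA polymerase subunit, at 50.8% ± 4.56 (SD, n = 7) and 47.1% ± 6.42 (SD, n = 8).

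Ribosomal protein genes, the mitochondrial ones included, had 4 of 257: Mrpl2 at 38.4% ± 5.85 and 46.1% ± 8.11, Rps27a at 41.3% ± 9.78 and 45.3% ± 9.84, and Mrps28 and Rpl32 with means of 46.9% to 49.5%. Olfactory and vomeronasal receptors had 3 of 263, of which Olfr895 had means of 41.4% ± 7.54 and 50.7% ± 7.15, and Olfr6 and Vmn2r99 had means between 30.03% and 36.8%. Genes of blood, epithelial and other body cells had 1 of 62, near Cd3e of T cells, at 50.6% ± 7.19 and 48.7% ± 6.41. Values are Control first, then PR, with SD over 7 and 8 libraries, and the ranges of the diets overlapped at each.

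The members fell into distinct settings by the methylation around them. 524 (35.3%) had no other listed CpG within 100 bp. Among the 961 with one, the neighbours' mean level was under 50% for 398 (41.4%), between 50% and 90% for 388 (40.4%), and 90% or more for 175 (18.2%), of which 115 had neighbours at 97% or more. The intermediate CpGs had neighbours under 50% in 3.74% and at 90% or more in 20.2%. Members with neighbours under 50% thus sat in small patches whose listed CpGs averaged under 50%, with a median member level of 40.7%. A CpG free of methylation could not be listed. Whether these patches also hold such CpGs therefore could not be checked. A member with neighbours at 90% or more was a lower CpG whose listed neighbours, at times only 1, averaged at least 90%. CpGs that are not listed may lie between them.

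For the members among methylated neighbours, other values are set beside those of the remaining members. Their dispersion, the variance between libraries of a diet over that of read counting alone, had a median of 1.89, against 1.16 for members with neighbours under 50% and 1.08 for members with none listed. It was above 2 in 42.3% of them, against 7.54% and 7.63%, and in 11.1% of those with neighbours between 50% and 90%. Over all listed CpGs 2.86% were above 2, and over the members 12.6%. The members with methylated neighbours also had more reads than those neighbours. Median coverage was 65.0 reads against 48.0, with a median ratio of 1.30, and 57.7% of them had a ratio of at least 1.2, while members with neighbours under 50% had a median ratio of 1 and 2.51% at or above 1.2. Intermediate CpGs with neighbours at 90% or more shared part of this: their median dispersion was 1.35, with 24.3% above 2, and 24.02% had a coverage ratio of at least 1.2. Among all 137345 listed CpGs with such neighbours, 2.37% had a dispersion above 2 and 2.19% had a ratio of at least 1.2. These shares were not tested against each other. No listed CpG has fewer than 11 methylated reads in any library, which takes more reads in all at a low CpG than at a methylated one. That limit favours a coverage ratio above 1 at a low CpG among methylated ones, and its part was not tested. By place, 65.7% of these members lay in genes, against 38.0% of those with neighbours under 50% and 61.8% of all listed positions. At gene ends lay 9.71%, against 15.2% and 7.93%.

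Library means over these 175 members also spread further. They ran from 36.1% (PR replicate 2) to 47.2% (PR replicate 6), a range of 11.1 percentage points, against 2.12 to 4.35 points in the 3 other classes. The lowest libraries, PR replicates 2 and 3 and Control replicate 4 at 36.1%, 37.0% and 39.2%, had the highest coverage of these sites, at 85, 84 and 90 reads in the median. The highest library, PR replicate 6, had the lowest coverage, at 45 reads. By diet the means were 42.8% ± 2.14 (SD, n = 7) and 41.9% ± 3.65 (SD, n = 8). In the intermediate CpGs with neighbours at 90% or more, library means ranged over 3.28 points. There PR replicate 3 was highest (72.2%), Control replicate 4 and PR replicate 2 had 70.9% and 70.4%, and PR replicate 6 was lowest (68.9%). Libraries with more reads were thus lower in the 175 members but not in those intermediate CpGs. The part of reads per library in the spread was not tested. End repair of MspI fragments can add cytosines at their ends, and how reads were trimmed is not stated. Whether these members lie next to CCGG was not analysed here, since no genome was used.

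4 such members, chosen after their values were seen for their large dispersion, show the setting. In Kcnd2, a voltage-gated potassium channel, the CpG at chr6:21393631 ran from 12.5% (PR replicate 3) to 57.1% (Control replicate 3), with Control libraries at 30.1% to 57.1% and PR libraries at 12.5% to 54.4%. Its 3 neighbours, the closest 4 bp away, stood at 97.3% to 98.4%, and had 37.4 reads where the member had 83.8. In Rassf8, a Ras-association domain gene, chr6:145815609 ran from 14.6% to 53.4% among 6 neighbours at 98.1% to 99.0%. In Spen, a transcriptional corepressor, chr4:141506092 ran from 26.1% to 76.3%, both ends being Control libraries. In Tiam1, an activator of the GTPase Rac, chr16:90024177 ran from 18.6% to 55.8%, both ends being PR libraries. PR replicate 3, among the libraries with the most reads at these sites, was the lowest in 3 of the 4 (Kcnd2, Rassf8 and Tiam1). The diets overlapped at all 4, and the unadjusted p of the 4 lay between 0.297 and 0.979 (quasi-binomial F test).

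**Figure D2:**
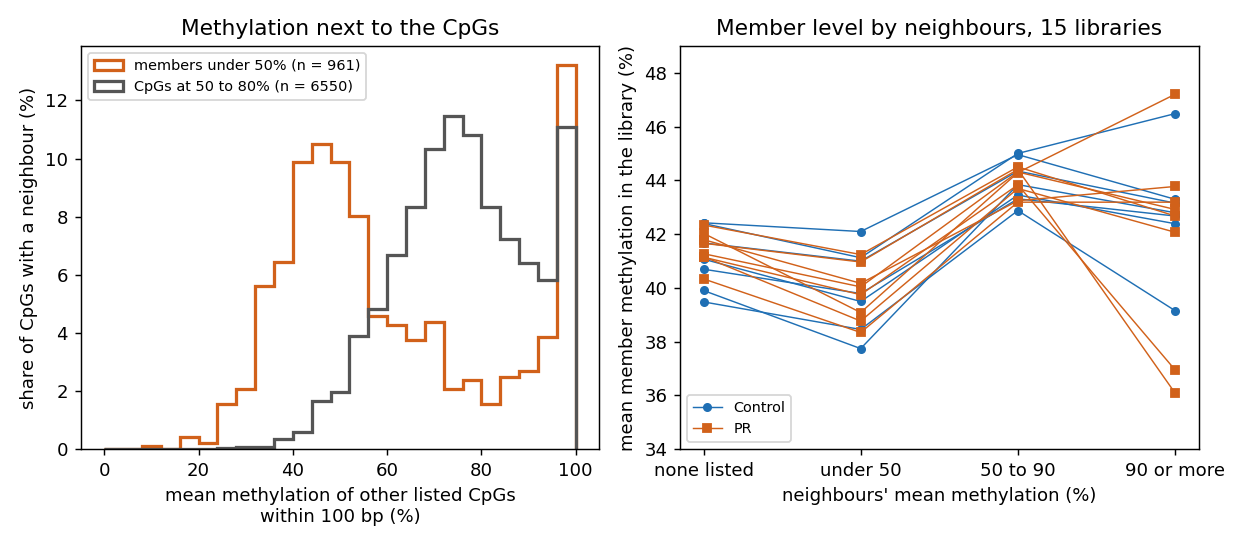
Left, share of CpGs (vertical axis, percent) by the mean methylation of other listed CpGs within 100 bp (horizontal axis, percent), for the 961 members and the 6550 intermediate CpGs with such a neighbour. Right, mean member methylation in each of the 15 libraries (vertical axis, percent) by the neighbours' level, with 1 line per library. The members have 1 peak under 50% and another above 90%, and the library lines fan out only over neighbours at 90% or more, from 36.1% to 47.2%.

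Most members stood alone. Joining members at most 200 bp apart gave 1147 runs, of which 923 (62.2% of members) held 1 member, 160 held 2, and 64 held at least 3. These 64 runs held 242 members over a median length of 78 bp, and 27 lay in a gene. The SD of a run's mean between libraries of a diet was 2.51 to 9.29 points, with a median of 5.87. 29 runs were higher in PR and 35 lower, with a median difference of -0.764 points.

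The largest runs held 8 members. That in the noncoding RNA gene Gm28380 (chr1:91611717-91611819) was even along its length, with members at 32.6% to 34.6%. Its Control libraries ran from 32.1% to 39.6% (median 33.7%) and its PR libraries from 22.9% to 44.8% (median 30.96%), so PR libraries lay on both sides of all Control libraries. The other, 1191 bp from the noncoding RNA gene Gm41447 (chr16:33138813-33138951), had 32.5% to 53.9% (median 40.2%) in Control and 41.0% to 56.3% (median 49.4%) in PR. The PR mean of 49.6% ± 5.34 (SD, n = 8) was 8.07 points over the Control mean of 41.5% ± 6.61 (SD, n = 7), which was the largest positive difference among the 64 runs, and the ranges overlapped. 4 of its 8 members were at an unadjusted p under 0.05, as were 3.79% of all positions, the adjusted p of each was 1 (quasi-binomial F test), and these CpGs share reads.

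In Grm4, a glutamate receptor of presynaptic terminals, 7 members (chr17:27502236-27502441) differed among themselves, from 27.2% to 47.4%. Run means were 33.0% to 45.0% in Control and 33.7% to 49.9% in PR libraries, and the diets overlapped. In Ttc29, a protein of the sperm tail, 6 members (chr8:78227250-78227406) had means of 28.4% to 41.4% in Control and 28.7% to 49.4% in PR libraries. In Gm40904, a noncoding RNA gene (chr13:12925829-12926181, 6 members), the ranges were 33.9% to 45.2% and 31.8% to 47.5%, and 8 other listed CpGs within 300 bp averaged 60.0%. In these 3 genes too, neither diet stood apart.

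A run of 6 members 8230 bp from Dancr, a long noncoding RNA (chr5:74084751-74084830), showed a single high library. Control replicate 2 stood at 69.8% while the other Control libraries ran from 36.1% to 50.3% and the PR libraries from 33.0% to 46.6%. All 6 members shared a mean near that of the run (42.6% to 44.7%). They lie within 80 bp and can share reads, so they are not 6 separate measures. Near Zwint, a kinetochore protein (chr10:72680356-72680442, 5 members, 5392 bp away), Control libraries ran from 17.5% to 45.2% and PR libraries only from 28.9% to 36.8%, with SDs of 9.12 and 2.65 points. In Trf, which encodes the iron carrier transferrin (chr9:103212971-103213015, 5 members), they ran from 34.3% to 46.9% and 29.5% to 52.7%. Which diet had the wider spread thus changed from run to run.

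The remaining runs named for their size held 5 members each. In C730027H18Rik (chr10:71175299-71175348) the library means were 29.2% to 46.0% in Control and 24.7% to 54.7% in PR. Near Gm38579 (chr9:50421990-50422084) they were 30.8% to 55.7% and 33.0% to 51.2%. The runs near Gm26288 (chr7:58232527-58232591) and Gm5821 (chr18:54758301-54758616) differed by 0.37 and -0.291 points between diets, with SDs of 4.66 to 6.49 points.

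**Figure D3:**
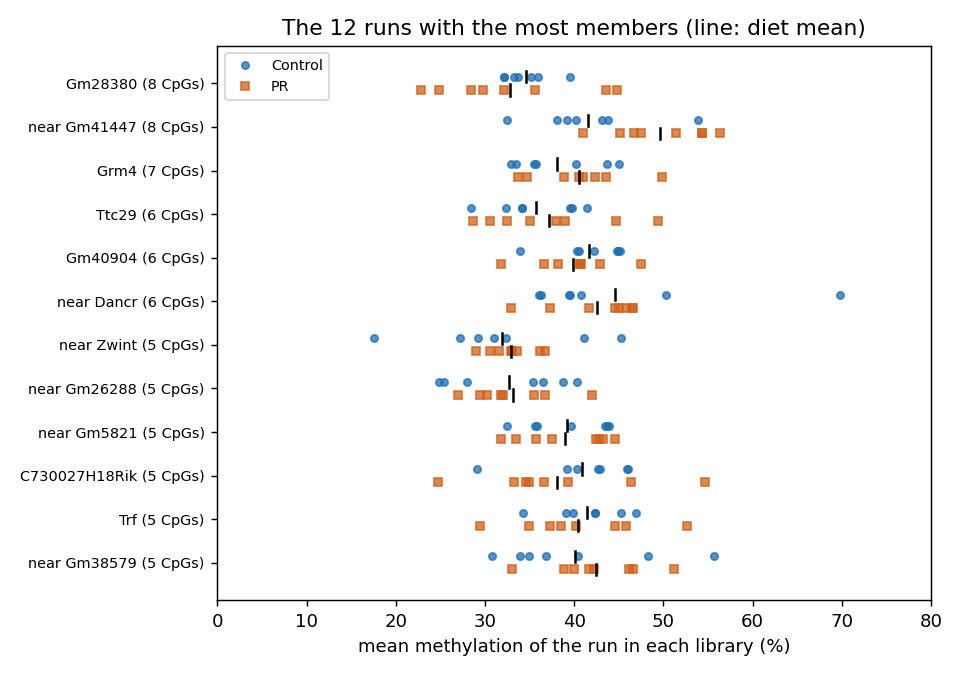
Mean methylation (horizontal axis, percent) of the 12 runs with the most members (rows, with ties at 5 members settled by the lower mean), with 1 point per library, circles for Control (n = 7) and squares for PR (n = 8), and a black line at each diet's mean. The diets overlap in every row, the run near Gm41447 has the widest gap between means (8.07 points), and 1 Control library stands at 69.8% in the run near Dancr.

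Runs of at least 3 members with the most spread between libraries, besides that near Dancr, lay in Cisd3b (37 bp, SD 9.29 points) and near Gm41278 (9.06), Smyd2 (8.73) and Gm52536 (8.21). In Cisd3b, library means ran from 34.5% to 60.6% in Control and from 28.6% to 54.8% in PR, a spread present in both diets. The steadiest runs lay near Prl2c3 (SD 2.51 points, 26.4% to 35.5% over all libraries), in Gm9734 and 2810410L24Rik (2.58) and near Klhdc9 (2.64). Coverage was 109, 72.8 and 58.2 reads in these 3, against 47.4 to 64.3 in the 5 with the most spread. The depth of the run near Klhdc9 lay within that range, and the part of depth in this order was not tested.

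Averaged over all 1485 members, the diets differed by far less than libraries did within a diet. Control libraries had means of 40.1% to 43.2% (median 41.4%), and PR libraries of 40.9% to 42.6% (median 41.7%). The diet means were 41.7% ± 1.197 (SD, n = 7) and 41.7% ± 0.650 (SD, n = 8), a difference, PR minus Control, of -0.0367 percentage points, whose sign changed when single libraries were left out (-0.319 to 0.208). The Control libraries with title numbers 22 to 24 had 42.4% to 43.2%, and those numbered 1, 6, 7 and 8 had 40.1% to 41.4%. Median member coverage was 49 to 53 reads in the former and 56 to 84 in the latter, so this split also follows coverage. Its part was not tested, and the labels do not say what the title numbers stand for. When runs of consecutive title numbers were averaged first, the difference was 0.177 points. In the intermediate CpGs the means were 68.7% ± 0.793 and 68.8% ± 0.702.

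Coverage of the members differed between libraries. Median member coverage was 49 to 84 reads in Control and 41 to 87 in PR libraries. PR replicate 2, with 87 reads, had a mean of 41.5%, which ranks 8 of 15. Control replicate 4, with 84 reads, had the lowest mean (40.1%), and was also the lowest over the 260 members with a mean coverage of at least 80 reads (34.7%, against 35.5% to 38.5% in the other libraries). PR replicate 6, with 41 reads, ranked 4 of 15 from the top in the members and lowest in the intermediate CpGs (67.7%). 11 methylated reads, the least the list holds, are 26.8% of the median coverage in PR replicate 6 but 13.1% in Control replicate 4. PR replicate 6 had 249 members at 11 or 12 methylated reads, against 15 to 96 in the other libraries. The part of this lower limit in the library means was not tested.

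**Figure D4:**
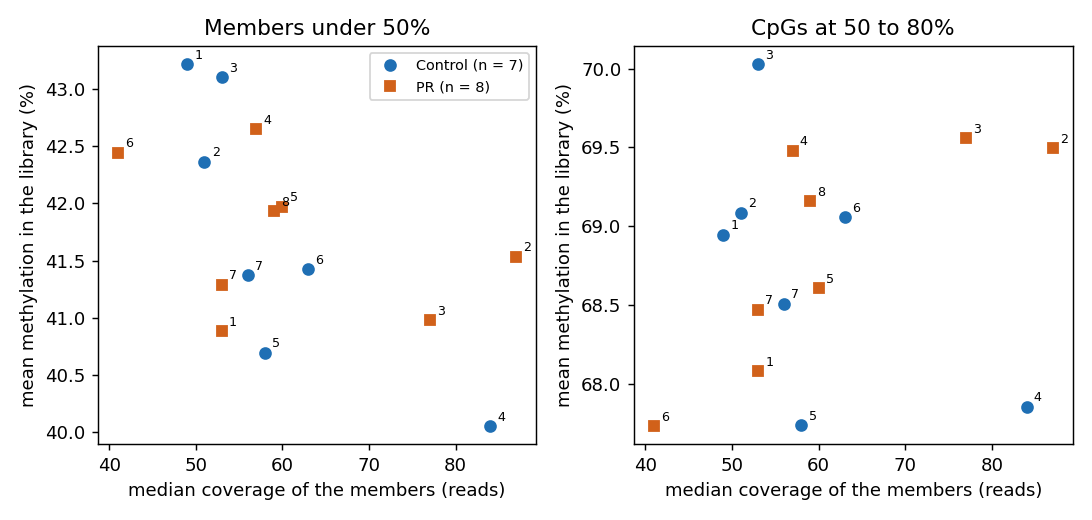
Mean methylation in each library (vertical axis, percent) against the median coverage of the members in it (horizontal axis, reads), for the 1485 members (left) and the 9313 intermediate CpGs (right), with replicate numbers beside the points. The Control libraries, between 40.1% and 43.2%, enclose the PR libraries on the left, and PR replicate 6 ranks 4 of 15 on the left and lowest on the right.

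No member CpG passed the test of PR against Control. In a quasi-binomial logistic model of the counts with Benjamini-Hochberg adjustment over all 204492 positions, 0 members had an adjusted p under 0.05, as had 0 (0%) of all positions, and the adjusted p of each member was 1. At an unadjusted p under 0.05 there were 54 members (3.64%), 26 higher and 28 lower in PR, against 3.79% of all positions (1.89% higher, 1.9% lower), so the members' share was near the background. limma on percent methylation also gave 0 at an adjusted p under 0.05, and gave 89 members at an unadjusted p under 0.05 (5.99%), against 4.56% of all positions. limma on log2 odds gave 0, and 7 (0.471%), against 4.56%. In limma the members' share thus lay above that of all positions on 1 scale and below it on the other. It depends on the scale and is not read as a trait of the members. 728 members were higher in PR and 757 lower, with a median difference of -0.103 points, and 5th and 95th percentiles of -6.12 and 6.28.

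Differences of at least 10 points were seen in 17 members (1.14%), 6 higher and 11 lower, against 0.121% of all positions (0.0597% higher, 0.0616% lower), most of which stand near full methylation and vary little. The intermediate CpGs had 1.81%. The diets' library values did not overlap in 0 members, and in 0.0191% of all positions. The within-diet SD of a member had a median of 7.01 points, where read counting alone gives 6.30. For 1 library at 60.6 reads and a level of 40%, counting error alone spans 12.3 points to either side at the 95% level (normal approximation, no molecular identifiers).

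The member higher in PR with the smallest p lay in Ptprs, a receptor tyrosine phosphatase of nerve growth, and the noncoding RNA gene Gm32822 (chr17:56470277). Control libraries ran from 26.4% to 47.5% (median 36.4%) and PR libraries from 37.5% to 52.0% (median 45.2%). PR lay higher but shared the upper part of the Control range, with means of 35.05% ± 7.01 (SD, n = 7) and 45.1% ± 5.35 (SD, n = 8) and an unadjusted p of 0.00616 (adjusted p = 1). At chr19:30552811, 3315 bp from Dkk1, a secreted Wnt inhibitor, the ranges were 31.9% to 50% and 44.2% to 61.2% (adjusted p = 1). The others higher in PR were chr17:38687333, 41680 bp from the pheromone family gene Esp31 (33.7% and 44.4% in the means), chr6:11199816 far from any gene (38.0% and 45.9%), and chr16:33138825 in the run near Gm41447 (38.9% and 49.4%). All 5 had overlapping diets.

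Lower in PR, the smallest p of all members, 0.00602 unadjusted, was at chr12:76964367, 2044 bp from Max, the partner of the transcription factor Myc. Control libraries ran from 44.9% to 70% (median 56.5%) and PR libraries from 24.4% to 53.1% (median 39.2%). The difference of -16.3 points, between means of 56.0% ± 10.2 (SD, n = 7) and 39.7% ± 9.33 (SD, n = 8), was the largest of all members (adjusted p = 1), and its neighbours within 100 bp averaged 98.7%. 2 more of the 5 had methylated neighbours. In Thap4, a zinc finger domain gene (chr1:93735377, neighbours at 94.3%), the ranges were 45.1% to 59.6% and 36.8% to 53.7%. At chr9:106490667, 5252 bp from Rrp9 of ribosomal RNA processing (neighbours at 98.3%), they were 44.9% to 55.1% and 25.3% to 57.5%. The remaining 2, at chr3:154364007 and chr7:62567125, had means of 53.6% and 44.1%, and of 54.3% and 42.8%, Control first (adjusted p = 1).

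**Figure D5:**
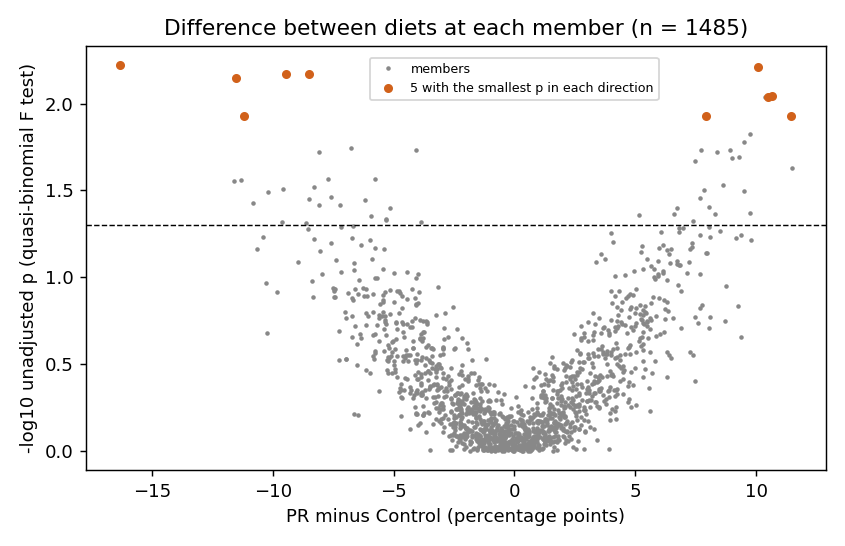
Unadjusted p of each of the 1485 members (vertical axis, -log10, quasi-binomial F test) against the difference in mean methylation, PR minus Control (horizontal axis, percentage points), with the 5 smallest p in each direction in orange and a dashed line at p = 0.05. The cloud is nearly even on both sides, with 26 members above the line to the right and 28 to the left, and all adjusted p are 1.

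Summing counts over 1 kb windows also gave no call. Close CpGs can share reads, so a summed count can exceed the number of separate reads. 60 windows held at least 3 members that made up at least 50% of their listed CpGs, with 223 members in all. In the same model over 28743 windows, 0 of the 60 had an adjusted p under 0.05, as had 0 (0%) of all windows. At an unadjusted p under 0.05 there were 2 (3.33%), 1 in each direction, against 3.33% of all windows (1.64% higher, 1.69% lower). limma gave 0 adjusted, and at an unadjusted p under 0.05 gave 3 on percent (4.75% of all windows) and 0 on log2 odds (5.08%). 27 windows were higher in PR and 33 lower, with a median difference of -0.701 points. Their dispersion had a median of 3.22, against 1.10 in all windows. CpGs on 1 read are not independent, and a read that covers several of them is counted several times in a window. How much this adds to the dispersion of these windows, and of the rest, was not tested. The medians alone therefore do not show whether libraries differed more in these windows than in the rest.

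The window with the smallest p in the direction of PR was that of the run near Gm41447 (chr16:33138001-33139000), at 33.0% to 55.8% in Control and 42.4% to 57.0% in PR libraries. Its means were 42.6% ± 6.93 (SD, n = 7) and 50.7% ± 5.45 (SD, n = 8), and p was 0.0229 unadjusted and 0.999 adjusted. In the opposite direction it was the window 29245 bp from Prl2c3 (chr13:12829001-12830000), at 34.2% to 42.5% and 31.2% to 40.4%. The means there were 39.2% ± 2.60 and 36.02% ± 2.90 (unadjusted p = 0.0313, adjusted p = 0.999). Tenm3, a synaptic adhesion protein, had 55.6% ± 4.21 and 52.6% ± 2.69, and Enthd1 41.5% ± 7.76 and 36.3% ± 5.43. The largest difference of a member window, -9.19 points in Gm13522 between 51.8% ± 7.21 and 42.6% ± 8.26, had an unadjusted p of 0.0955. Fyb2 with Gm12721 had 40.2% ± 5.28 and 34.9% ± 6.67. Higher in PR were Gm42081 (28.9% and 31.7%), the window 617 bp from Decr1, an enzyme of fatty acid oxidation (48.9% and 50.2%), Gm38641 (32.0% and 33.2%) and Ttc29 (35.7% and 37.2%). All of these windows had an adjusted p of 0.999 and overlapping diets.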

How the data were processed

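Reduced representation bisulfite libraries were made from 100 ng of sperm DNA cut with MspI, per the labels' protocols, and grouped by the diet label into 7 Control and 8 PR. The deposited files give, per CpG position, the count of methylated reads and the count of all reads, with no normalization by the authors. The submitters' processing notes name Bismark 0.7.12, Bowtie2 2.1.0 and mm10, without roles. How reads were trimmed and positions filtered is not given in the sources used. Positions read as the forward-strand C of a CpG. Counts summed over all listed positions were 6650912 to 11841657 per library.

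Percent methylation was methylated over total counts. The members, gene lists and tests were chosen with earlier results of these data known. Each CpG, and each window of 1000 bp with at least 3 listed CpGs, entered a quasi-binomial logistic model on diet (F test on 13 residual degrees of freedom, dispersion at least 1, Benjamini-Hochberg adjustment over the whole table, calls at 0.05, at least 10 reads in every library), written in Python 3.11.15 with numpy 2.4.6 and scipy 1.17.1. limma 3.58.1 was run on percent and on log2 odds with a pseudocount of 1. The scripts were tested on simulated data. Other alternatives were no dispersion floor, 20 reads, other limits for members, windows and gene ends, and leaving out each library. No 2 libraries of 105 pairs had identical counts at all members. Replicate numbers follow accession order and pair nothing. Genes, starts and promoter sequences come from RefSeq GRCm38.p6, and 1463 members lay on its chromosomes.

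Named were the 12 runs with the most members (8 runs had 5 members, of which the 6 with the lowest means are among them; those in Hotair and near Gm52536 are not), the 5 CpGs and the 5 windows with the smallest p in each direction, the 5 lowest members, the 5 most and 3 least variable runs of at least 3 members, up to 4 genes per list, and genes with a member in the promoter window.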

Additional observations from a re-analysis of the deposited data

Results flagged for a closer look

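6 of the 94 groups of libraries examined had a library apart from the rest of its diet, where chance gives about 1 in 20. Median member coverage in Control replicate 4 was 84 reads, against 49 to 63 in the other Control libraries. In the run in Gm40904, Control replicate 7 had 33.9%, against 40.3% to 45.2%. In the run near Dancr, Control replicate 2 had 69.8%, against 36.1% to 50.3%. In the run in C730027H18Rik, Control replicate 5 had 29.2%, against 39.2% to 46.0%. In the run near Prl2c3, PR replicate 4 had 35.5%, against 26.4% to 29.4%. At chr4:147187938 in Zfp978, PR replicate 6 had 20.8%, against 11.3% to 15.1%. The 5 methylation values lie in 5 different libraries, and no library stood apart at more than 1 of them.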

How the results depend on the processing

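No member CpG and no member window passed an adjusted p of 0.05 under any of the alternatives run, which covers both limma versions, no dispersion floor, 20 reads (CpGs), other window rules and leaving out each library. Without the dispersion floor, 194 of all CpGs and 2 of all windows passed, none of them members. Member CpGs at an unadjusted p under 0.05 numbered 54 in the quasi-binomial test, 89 by limma on percent, 7 by limma on log2 odds, and 44 to 64 with 1 library left out. Member windows at that mark numbered 2, and 0 by limma on log2 odds, 1 with windows of 500 bp (58 member windows), 26 with at least 1 listed CpG (809 member windows), and 1 to 5 with 1 library left out (1 without Control replicate 1 or 2 or PR replicate 2 or 6, 4 without Control replicate 7, 5 without Control replicate 5). The cause was not tested, save that the last 2 window rules change the number of windows.

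The difference over all members, -0.0367 points, was -0.113 from summed reads, -0.240 in members under 40% and -0.0479 in members of at least 80 reads (added after seeing the data). It was 0.177 with consecutive title numbers averaged and -0.319 to 0.208 with 1 library left out. Each value lay within the spread between libraries, which for the values with 1 library left out follows by construction. With gene ends taken as 2 kb, the shares of members at gene ends, further inside genes and outside genes were 26.2%, 28.6% and 45.2%, by construction, and 44.9% of members under 40% lay outside genes. Of 450 alternative values for the 15 named CpGs and 10 named windows, 4 changed sign and 0 passed the test (lowest adjusted p 0.164). At chr11:119525026 the difference of -0.520 points ran from -1.57 to 0.408 with 1 library left out, above 0 when that was Control replicate 1 (0.268), Control replicate 6 (0.408) or PR replicate 8 (0.152). In the window in Ttc29 it ran from -0.207, without PR replicate 2, to 2.75. For 52 runs, list genes and promoter windows, 0 of 780 values with 1 library left out moved by more than the spread between libraries (added after seeing the data). With diets of this size, leaving out 1 library cannot move a difference by as much as the SD within diets, whatever the values. That count is therefore fixed by construction and does not measure how stable these differences are. No paired analysis was possible because the replicate numbers only follow accession order. Depth limits single members, and the floor of 11 methylated reads limits how low a listed CpG can be.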
